A study of Drosophila melanogaster with 36 samples.

Results

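The mitochondrial genome transcripts of *Drosophila melanogaster* described here are the 37 genes whose symbol starts with mt: in a table of read counts for 17562 genes. They comprise 13 protein genes, 2 ribosomal RNA (rRNA) genes and 22 transfer RNA (tRNA) genes, and all 37 matched genes annotated on the mitochondrial genome. The study asked how glia and brain change with age, and profiled RNA from female brains at 70 days (old) and 5 days (young). Green fluorescent protein (GFP), expressed under a GAL4 driver, marked the cells to be sorted. GMR56F03 and GMR10E12 drive mainly in ensheathing glia, which wrap the compartments of the brain, and GMR86E01 drives in astrocyte-like glia, which reach into them. From each line and age, GFP-positive cells were sorted and the unsorted brain suspension was kept, which gave 12 groups of 3 libraries: ensheathing glia of GMR56F03 and of GMR10E12, astrocyte-like glia of GMR86E01, and the brain of each of the 3 lines, each at both ages. Every group carried the driver and the GFP reporter, each library came from pooled brains, and dissociation was done in the presence of actinomycin D, which blocks transcription.

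The mitochondrial genome of animals is a small circle that is copied and transcribed apart from the nucleus. Its protein genes encode subunits of respiratory complexes I, III and IV and of ATP synthase, which work together with subunits made from nuclear genes, and its rRNAs and tRNAs serve the mitochondrial ribosome. Both strands are transcribed into long precursors, and the tRNAs that lie between most of the other genes mark the places at which these precursors are cut. In insects most mature mitochondrial messenger RNAs and the large rRNA carry a short poly(A) tail, whereas mature tRNAs do not, and the libraries here were primed with oligo-dT.

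In the dm6 genome build, 23 of the 37 genes lie on the plus strand and 14 on the minus strand. Of the 36 pairs of neighbouring genes, 28 overlap or lie within 10 bases of each other, 14 abut with no base between them, and 4 share bases. The large rRNA gene mt:lrRNA (positions 12735 to 14058) and the small rRNA gene mt:srRNA (14131 to 14916) lie on the minus strand, on either side of mt:tRNA:Val-TAC. The gene of subunit 6 of ATP synthase, mt:ATPase6 (4062 to 4736), shares its last base with mt:CoIII (4736 to 5524), which encodes subunit III of cytochrome c oxidase. Reads that touched more than 1 gene were dropped by the counting, so fragments across these junctions are missing from all values below, and the files do not state whether counting used strand.

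Total counts ran from 912285 to 17060052 per library. A level below is a normalized CPM, the count of a gene relative to the effective size of its library, on 1 scale for all 36 libraries. The summed level of 8 neuronal markers was 645 to 2913 CPM in the 18 sorted libraries, against 5080 to 6879 CPM in the 18 brain libraries. The glial marker repo had 168 to 613 CPM in sorted libraries, against 32.3 to 107 CPM in brain. The 3 astrocyte markers summed to 22746 to 23972 CPM in young astrocyte-like glia, against 4224 to 7117 CPM in young ensheathing glia, while the 3 ensheathing markers overlapped between these groups (408.6 to 899 CPM in ensheathing and 306.2 to 440 CPM in astrocyte-like glia). Old GMR10E12 brain replicates 1 and 3 stood apart from the other 7 old brain libraries, with 11.3% and 7.80% of their counts on nuclear rRNA genes, against 2.49% to 4.97% in the other 34 libraries. The main brain results that include them are given with and without both. In bulk samples, fewer cells of a type and less RNA per cell cannot be told apart.

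The 37 genes took 5.61% to 17.8% of all counts, and old libraries had the smaller shares. In GMR56F03 ensheathing glia the share was 6.84%, 6.21% and 6.60% in the old libraries, against 10.0%, 11.4% and 9.86% in the young. In GMR10E12 ensheathing glia it was 10.5%, 9.74% and 11.4% at 70 days, against 12.3%, 17.8% and 11.5% at 5 days. In astrocyte-like glia it was 12.3%, 7.72% and 9.07% at 70 days, against 14.9%, 16.04% and 13.4% at 5 days. Every old library lay below every young library in 4 of the 6 pairs of groups, which were the 3 sorted lines and the GMR86E01 brain. In brain the old libraries had 5.61% to 10.6% (up to 8.78% without the 2 that stood apart) and the young 7.004% to 12.7%. The library with the fewest counts had the highest share in 7 of the 12 groups, and the part of depth in the share was not tested.

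**Figure D1:**
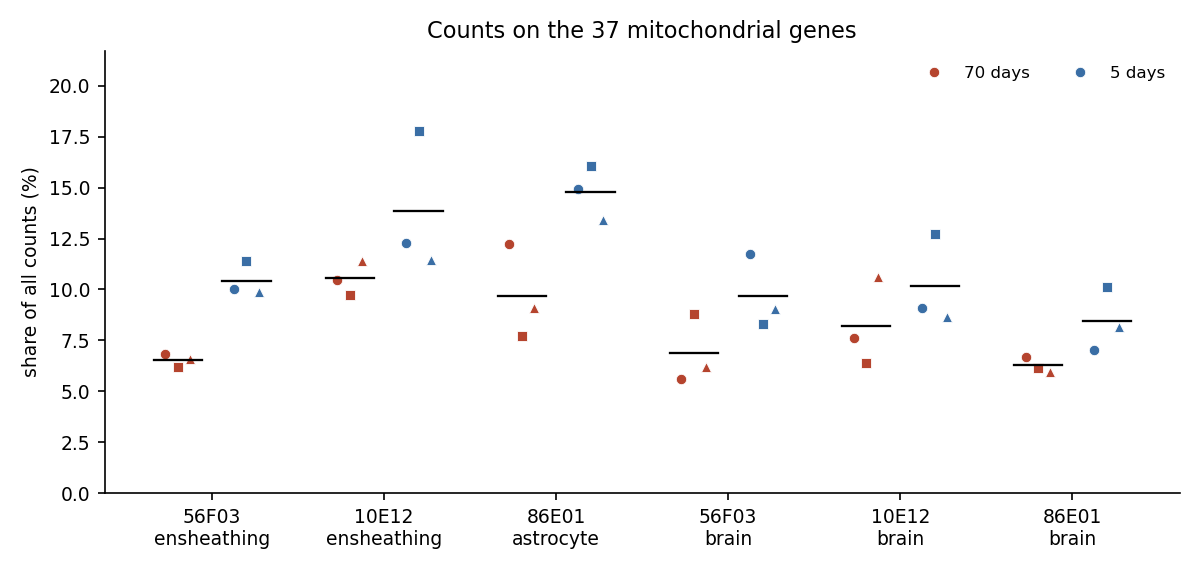
Share of all counts (%, vertical axis) on the 37 mitochondrial genes in each of the 36 libraries, by line and tissue, with 70-day libraries in red to the left of 5-day libraries in blue. Circles, squares and triangles are replicates 1, 2 and 3, and bars are group means. The highest value, 17.8%, is young GMR10E12 ensheathing replicate 2.

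Levels differed widely between the members. Per kilobase of gene, young ensheathing glia had mean levels of 23244 CPM for mt:Cyt-b (cytochrome b, complex III), 23022 for mt:CoI and 19794 for mt:CoII (catalytic subunits of cytochrome c oxidase), and 18713 for mt:ATPase6. In the same libraries the complex I genes reached means of 3314 CPM per kilobase for mt:ND5 down to 97.7 for mt:ND4L. The order of the 4 most abundant genes differed between ages. In old ensheathing glia mt:ATPase6 came first, with 22634 CPM per kilobase, followed by mt:CoI with 17117, mt:CoII with 14780 and mt:Cyt-b with 12647. It also led in old astrocyte-like glia (28114, against 19961 for mt:CoI), where in young ones mt:CoI had 35083 and mt:ATPase6 29091. These orders are descriptions. Pooled over both lines, the levels of the first 4 genes overlapped in young and in old ensheathing glia. Within every old ensheathing library the order of these 4 was the same, whereas it varied between young ones. Reads from oligo-dT priming need not cover a gene evenly.

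With age, the rRNAs and some of the messenger RNAs were lower in glia and in brain. In ensheathing glia of both lines together (6 libraries an age), 8 of the 19 members tested fell and 1 rose, whereas 9.15% of the 8970 genes tested fell, 9.74% rose and 18.9% passed in either direction. The members that fell were both rRNAs, the 3 cytochrome c oxidase genes, mt:Cyt-b, mt:ND5 and mt:ND4. The median log2 difference, old minus young, was -0.01 over the 19 members and 0.01 over all genes. Of the 13 protein genes 6 fell, with a median of -0.20. Markers moved in the same libraries. The 3 astrocyte markers summed to 1748 to 2751 CPM in old and 4224 to 7117 CPM in young ensheathing glia, with no overlap, and all 3 fell (median -1.39). The glial marker repo had 168 to 221 CPM in old and 272 to 456 CPM in young libraries, and the 8 neuronal markers, of which 2 rose and 3 fell, summed to 1356 to 2008 and 2189 to 2913 CPM. In each line the 3 ensheathing markers summed lower at 70 days, though egr alone was higher. The sums were 597 to 646 against 868 to 899 CPM in GMR56F03 and 326 to 392 against 409 to 588 in GMR10E12. Photoreceptor markers summed higher, mainly through ninaE, with 959 to 1988 against 179 to 606 CPM and 4851 to 7433 against 2782 to 4462. Their member ninaC overlapped in GMR56F03 and was lower in GMR10E12. No astrocyte or neuronal marker and no repo count was at 0 in these 12 libraries, and the part of all these markers in the result was not tested. In GMR56F03 alone the same counts were found, 8 lower and 1 higher of 19 (5.6% of all genes fell, 9.43% rose and 15% did either), and in GMR10E12 alone 2 of 20 fell (4.39% of all genes fell, 5.19% rose and 9.58% did either). These calls and every adjusted p below rest on the quasi-likelihood test of edgeR, and the Benjamini-Hochberg adjustment ran over all genes tested.

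The GMR10E12 count changed with the libraries used. Without young replicate 2, 6 members passed, 4 higher and 2 lower. Without young replicate 1 or without any single old replicate, 1 passed. The age effect itself was not shown to differ between the drivers, since 0 of 21 members passed in the test of that difference (6 at an unadjusted p below 0.05, and 1 with DESeq2), where 0.691% of all genes did (0.453% higher and 0.237% lower).

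In astrocyte-like glia 8 of 20 members tested fell, against 3.65% of all genes (2.8% rose and 6.44% did either), and the median over the members was -0.76 (0.11 over all genes). The 8 were again both rRNAs, mt:CoI, mt:CoII, mt:CoIII, mt:Cyt-b, mt:ND5 and mt:ND4. Other cell type markers moved in the same libraries. The 8 neuronal markers summed to 1732 to 2365 CPM in old astrocyte-like libraries and 645 to 1118 in young ones, and the 3 astrocyte markers to 3399 to 6088 and 22746 to 23972 CPM. The 3 blood cell markers summed to 484 to 746 CPM in the old and 2925 to 3694 in the young libraries. Of these lists 5 of the 8 neuronal markers rose, and all 3 astrocyte and 2 of the 3 blood cell markers fell. The glial marker repo had 176 to 264 CPM in the old and 563 to 613 in the young libraries. The markers of surface glia summed to 355 to 459 and 1289 to 1486 CPM, where vkg was lower and moody and Mdr65 overlapped. No neuronal, astrocyte or blood cell marker was at 0 in any of these 6 libraries, and the part of all these markers in the result was not tested.

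In the brains of all 3 lines, 6 of 19 members fell (10.7% of all genes fell, 11.2% rose and 22% did either). Without the 2 libraries that stood apart, 10 of 19 fell while 29.9% of all genes passed in either direction. Within lines, 5 of 18 members fell in GMR56F03 brain (6.75% of all genes fell, 5.78% rose and 12.5% did either) and 4 of 18 in GMR86E01 brain (3.82% of all genes fell, 2.31% rose and 6.13% did either). In GMR10E12 brain 0 of 19 members passed (0.0358% of all genes rose and 0% fell), 9 members had an unadjusted p below 0.05 and 7 passed with DESeq2. In the 18 brain libraries the 3 astrocyte markers also fell (median -1.50), with sums of 477 to 1016 CPM in old and 888 to 3273 CPM in young brain. Of the 3 fat body markers both that were tested rose (median 2.66), with sums of 108 to 4029 CPM in old and 27.8 to 215 CPM in young brain, and the defining marker Lsp2 was at 0 in most brain libraries. Of the 8 neuronal markers 3 fell and 1 rose, with sums of 5080 to 6879 and 5438 to 6634 CPM. The part of these markers in the result was not tested.

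**Figure D2:**
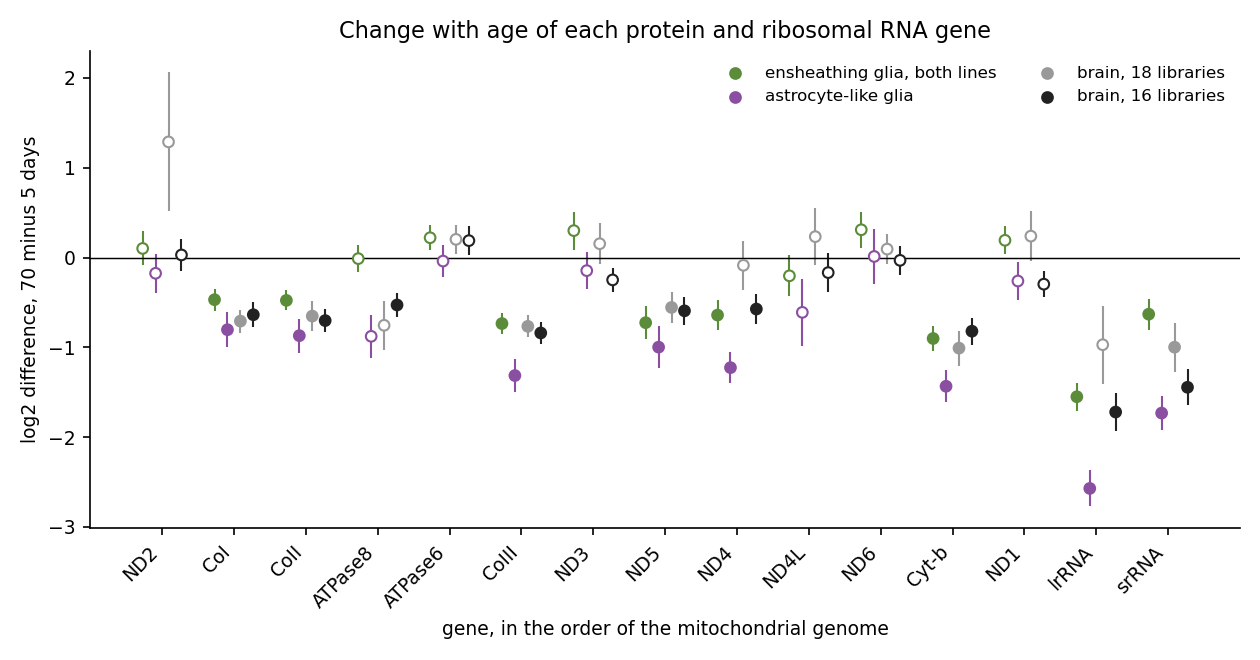
Difference between 70 and 5 days on the log2 scale (vertical axis) for the 13 protein and 2 rRNA genes in genome order, in ensheathing glia of both lines, astrocyte-like glia, all 18 brain libraries and the 16 left without the 2 that stood apart. Points are edgeR estimates, bars their standard errors, and filled points passed an adjusted p of 0.05. mt:lrRNA lies lowest in both kinds of glia and in the 16 brain libraries, and mt:ATPase6, mt:ND6, mt:ND1 and mt:ND3 have no filled point.

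The large rRNA, the RNA core of the large subunit of the mitochondrial ribosome, had the largest fall of the 15 protein and rRNA genes in both kinds of glia. In GMR56F03 ensheathing glia mt:lrRNA had 2698, 2317 and 2157 CPM at 70 days, against 10739, 7992 and 8367 CPM at 5 days. The log2 difference was -1.90 (standard error 0.14, adjusted p = 3.6e-05), or 3.74-fold lower. In GMR10E12 ensheathing glia it had 5153, 5931 and 7187 CPM at 70 days, against 13236, 16282 and 11909 CPM at 5 days (-1.18, standard error 0.17, adjusted p = 0.00504). In astrocyte-like glia it had 4980, 3215 and 3446 CPM at 70 days, against 21779, 26945 and 20992 CPM at 5 days (-2.57, standard error 0.20, adjusted p = 7.7e-04), which is 5.95-fold lower. Old and young libraries did not overlap in any of the 3 sorted lines.

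In brain mt:lrRNA ranged from 3172 to 36832 CPM (median 5594) in the 9 old libraries, against 9024 to 26344 CPM (median 14102) in the 9 young. The 2 highest old values, 34812 and 36832 CPM, came from the 2 libraries that stood apart, and the other 7 old libraries reached 6156 CPM at most. With all 18 libraries the difference did not pass (-0.97, standard error 0.43, adjusted p = 0.118). Without these 2 it was -1.72 (standard error 0.22, adjusted p = 2.0e-05). It also fell within GMR56F03 brain (-1.84, adjusted p = 0.00206) and GMR86E01 brain (-1.72, adjusted p = 0.0186).

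The small rRNA, the RNA core of the small ribosomal subunit, was an order of magnitude less abundant in these libraries. In GMR56F03 ensheathing glia mt:srRNA had 199, 230 and 240 CPM at 70 days, against 487, 444 and 472 CPM at 5 days (log2 difference -1.05, standard error 0.14, adjusted p = 9.2e-04). In GMR10E12 it had 487, 479 and 679 CPM at 70 days, against 648, 733 and 503 CPM at 5 days, and these overlapped (-0.19, standard error 0.21, adjusted p = 0.64). In astrocyte-like glia it had 388, 315 and 280 CPM at 70 days, against 1062, 1178 and 1053 CPM at 5 days (-1.73, standard error 0.19, adjusted p = 0.00216). In the 18 brain libraries it fell by 1.00 on the log2 scale (standard error 0.27, adjusted p = 0.013), with 241 to 1775 CPM (median 422) in the old and 572 to 1950 CPM (median 1073) in the young libraries. Without the 2 that stood apart the old libraries had 241 to 558 CPM, below all young ones, and the fall was 1.45 (standard error 0.20, adjusted p = 4.7e-05).

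**Figure D3:**
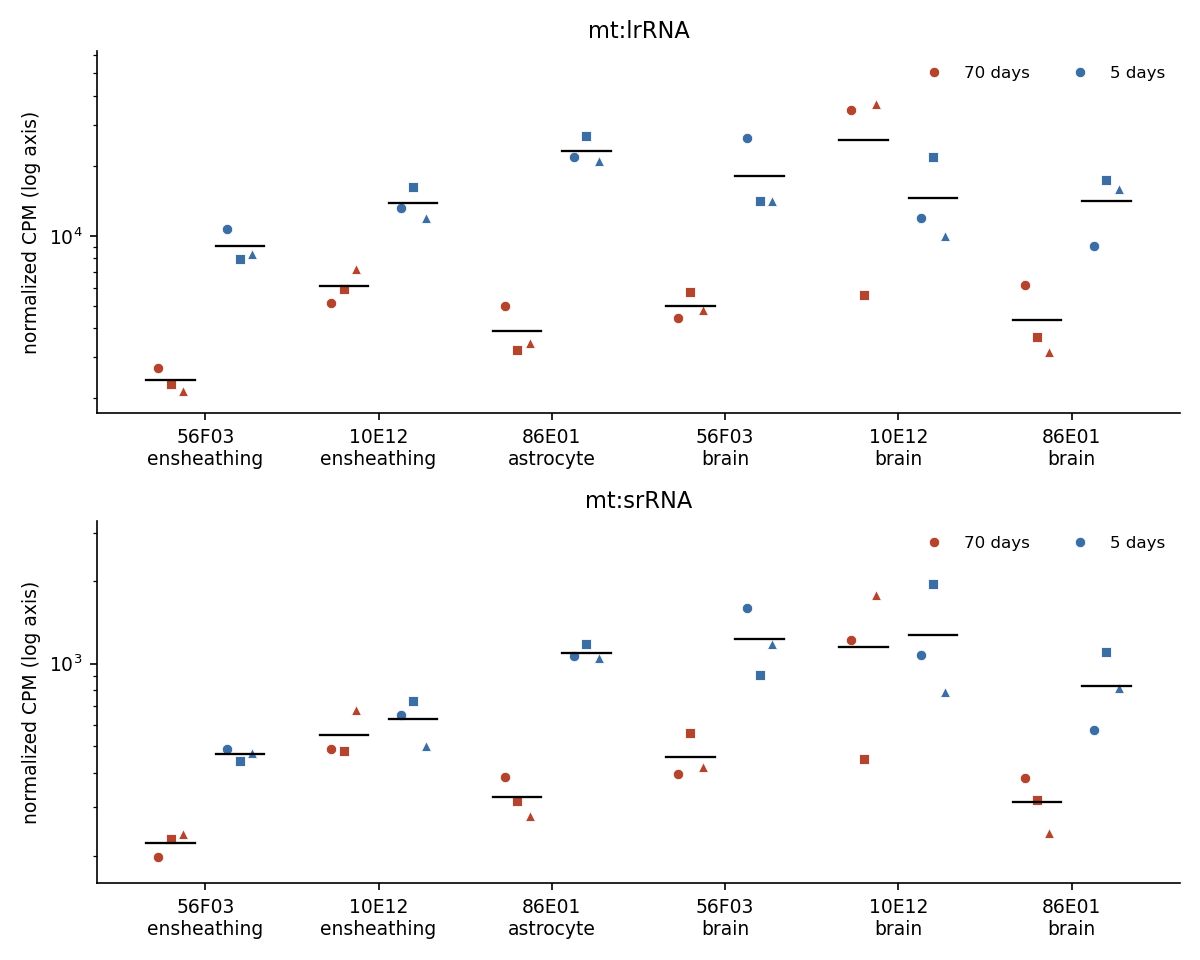
Normalized CPM (vertical axes, log scale) of mt:lrRNA (top) and mt:srRNA (bottom) in each library, with 70-day libraries in red to the left of 5-day libraries in blue and bars at group means. For mt:lrRNA, old libraries lie below young ones in every pair except GMR10E12 brain, where 2 of the 3 old libraries reach 34812 and 36832 CPM.

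Both rRNAs lie on the same strand, on either side of mt:tRNA:Val-TAC. The size of a library cancels in a ratio of its own counts, so the ratio of both rRNAs can be compared without any scaling between libraries. In ensheathing glia of both lines together the ratio of mt:lrRNA to mt:srRNA was 8.98 to 13.6 in the 6 old libraries, against 17.7 to 23.7 in the 6 young ones. The mean was 1.88-fold lower in old libraries (log2 difference -0.91, two-sided exact permutation test with ages permuted within line, p = 0.005, the smallest this design allows, and 0.04 after adjustment over the 8 age comparisons). In astrocyte-like glia the ratio was 10.2 to 12.8 at 70 days and 19.9 to 22.9 at 5 days, a log2 difference of -0.85. Each single line also had no overlap in sorted cells, but 3 against 3 libraries cannot reach an exact permutation p below 0.1. In brain the ratio was 10.3 to 28.4 in old and 11.1 to 19.6 in young libraries, and the log2 difference of -0.0021 did not pass (exact permutation p = 0.995). Without the 2 libraries that stood apart it was -0.22 (exact permutation p = 0.0781).

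Among the protein genes, mt:Cyt-b passed in 7 of the 8 age comparisons, more than any other member. The comparisons that join lines reuse the libraries of the single lines, so the 8 are not independent. In GMR56F03 ensheathing glia it had 10722, 9892 and 10869 CPM at 70 days, against 18668, 24088 and 19993 CPM at 5 days (log2 difference -0.98, standard error 0.10, adjusted p = 2.7e-04). In GMR10E12 it had 18237, 16683 and 19878 CPM at 70 days, against 26481, 44994 and 24348 CPM at 5 days (-0.80, standard error 0.21, adjusted p = 0.0455). In astrocyte-like glia it had 18350, 11496 and 13683 CPM at 70 days, against 40061, 42729 and 35608 CPM at 5 days (-1.43, standard error 0.18, adjusted p = 0.00313). No old library reached the level of a young one within any of these 3 lines.

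The genes of cytochrome c oxidase, the last complex of the chain, fell to a smaller degree. In ensheathing glia mt:CoIII had 5073 to 9416 CPM (median 6860) in old and 9268 to 15774 CPM (median 10870) in young libraries, and fell by 0.74 (standard error 0.11, adjusted p = 5.5e-04). mt:CoII had 6948 to 13781 CPM (median 9679) in old and 10954 to 18960 CPM (median 12774) in young libraries (-0.48, standard error 0.11, adjusted p = 0.00871). mt:CoI had 17728 to 35483 CPM (median 25309) in old and 26593 to 54947 CPM (median 32734) in young libraries (-0.47, standard error 0.12, adjusted p = 0.0156). The lines differ in level, and the pooled ranges overlap at these 3 genes. Within GMR10E12, old and young libraries also overlapped at mt:CoI (31171 to 35483 against 32760 to 54947 CPM). The same held there for mt:CoII (12237 to 13781 against 13331 to 18960 CPM). In GMR10E12 alone none of the 3 passed, with log2 differences of -0.53, -0.23 and -0.29. In astrocyte-like glia the same genes had log2 differences of -1.31, -0.87 and -0.80, and all 3 passed. In the 18 brain libraries the differences were -0.77, -0.65 and -0.71, and without the 2 that stood apart -0.84, -0.70 and -0.64, and all of these passed.

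Complex I, which takes electrons from NADH, has 7 mitochondrially encoded subunits, and 2 of them fell. mt:ND5 had 2225 to 5471 CPM (median 3481) in old and 3882 to 10753 CPM (median 4961) in young ensheathing glia (-0.73, standard error 0.18, adjusted p = 0.0132). mt:ND4 had 384 to 1062 CPM (median 589) in old and 700 to 1696 CPM (median 847) in young ones (-0.64, standard error 0.17, adjusted p = 0.0143). In astrocyte-like glia mt:ND4 had 670, 518 and 548 CPM at 70 days, against 1294, 1498 and 1297 CPM at 5 days (-1.23, standard error 0.17, adjusted p = 0.00575). Both of these genes lie on the minus strand, where mt:ND4L and mt:ND1 did not pass in any of the 8 age comparisons.

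The protein genes that passed in none of the 8 age comparisons with edgeR were mt:ATPase6, mt:ATPase8, mt:ND1, mt:ND2, mt:ND3, mt:ND4L and mt:ND6. Of these, mt:ATPase8 passed in brain once the 2 libraries that stood apart were left out (-0.53, standard error 0.14, adjusted p = 0.00882). mt:ATPase6 encodes part of the proton channel of ATP synthase. It had 10323, 9381 and 10608 CPM in old GMR56F03 ensheathing glia, against 9272, 10934 and 9441 CPM in young. In astrocyte-like glia it had 23809, 15014 and 18108 CPM at 70 days, against 19240, 21794 and 17876 CPM at 5 days. Its log2 differences were 0.05 (95% interval -0.14 to 0.23) and -0.04 (-0.38 to 0.30), and 0.22 (-0.06 to 0.50) in both ensheathing lines together. The lower ends of these intervals lie above the estimates for mt:CoIII in the same libraries (-0.92, -1.31 and -0.74). The error of the mt:CoIII estimates is not allowed for, and the difference between the genes was not tested. The complex I gene mt:ND1 had 758 to 1852 CPM (median 1104) in old and 799 to 1594 CPM (median 865) in young ensheathing glia (0.19, standard error 0.15, adjusted p = 0.431).

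Shares of all mitochondrial counts need no scaling between libraries, but the shares of the members of a library sum to 100, so each share depends on the others. mt:ATPase6 held 16.7% to 19.2% in old and 9.95% to 11.4% in young ensheathing glia, and 19.8% to 20.5% in old and 10.2% to 10.7% in young astrocyte-like glia. mt:ND6 held 0.436% to 0.648% in the 18 old libraries and 0.238% to 0.409% in the 18 young libraries, with no overlap across tissues and lines. mt:ND1 likewise did not overlap, with 1.15% to 3.11% in old and 0.767% to 0.966% in young libraries. For mt:ND3 every old library lay above every young one in each of the 6 pairs of groups, with 0.359% to 0.926% in old and 0.210% to 0.439% in young libraries.

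The contrast was plainest between mt:ATPase6 and the gene next to it. The count of mt:ATPase6 over that of mt:CoIII was 1.51 to 2.71 (median 2.15) in the 18 old libraries, against 0.944 to 1.37 (median 1.05) in the 18 young. It was 1.91, 1.85 and 2.08 in old and 1.00, 0.997 and 0.989 in young GMR56F03 ensheathing glia, and 2.71, 2.71 and 2.599 in old and 1.08, 1.09 and 1.16 in young astrocyte-like glia. Both libraries that stood apart, with 1.51 and 2.19, were also above all young libraries. A like pattern held for mt:ND6 over its downstream neighbour mt:Cyt-b, which was 2.28% to 9.72% in old and 1.12% to 2.04% in young libraries, and for mt:ND3 over mt:CoIII, which was 4.62% to 16.3% in old and 2.27% to 4.41% in young libraries. These ratios were picked after the values had been seen, and are given as descriptions without a test.

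**Figure D4:**
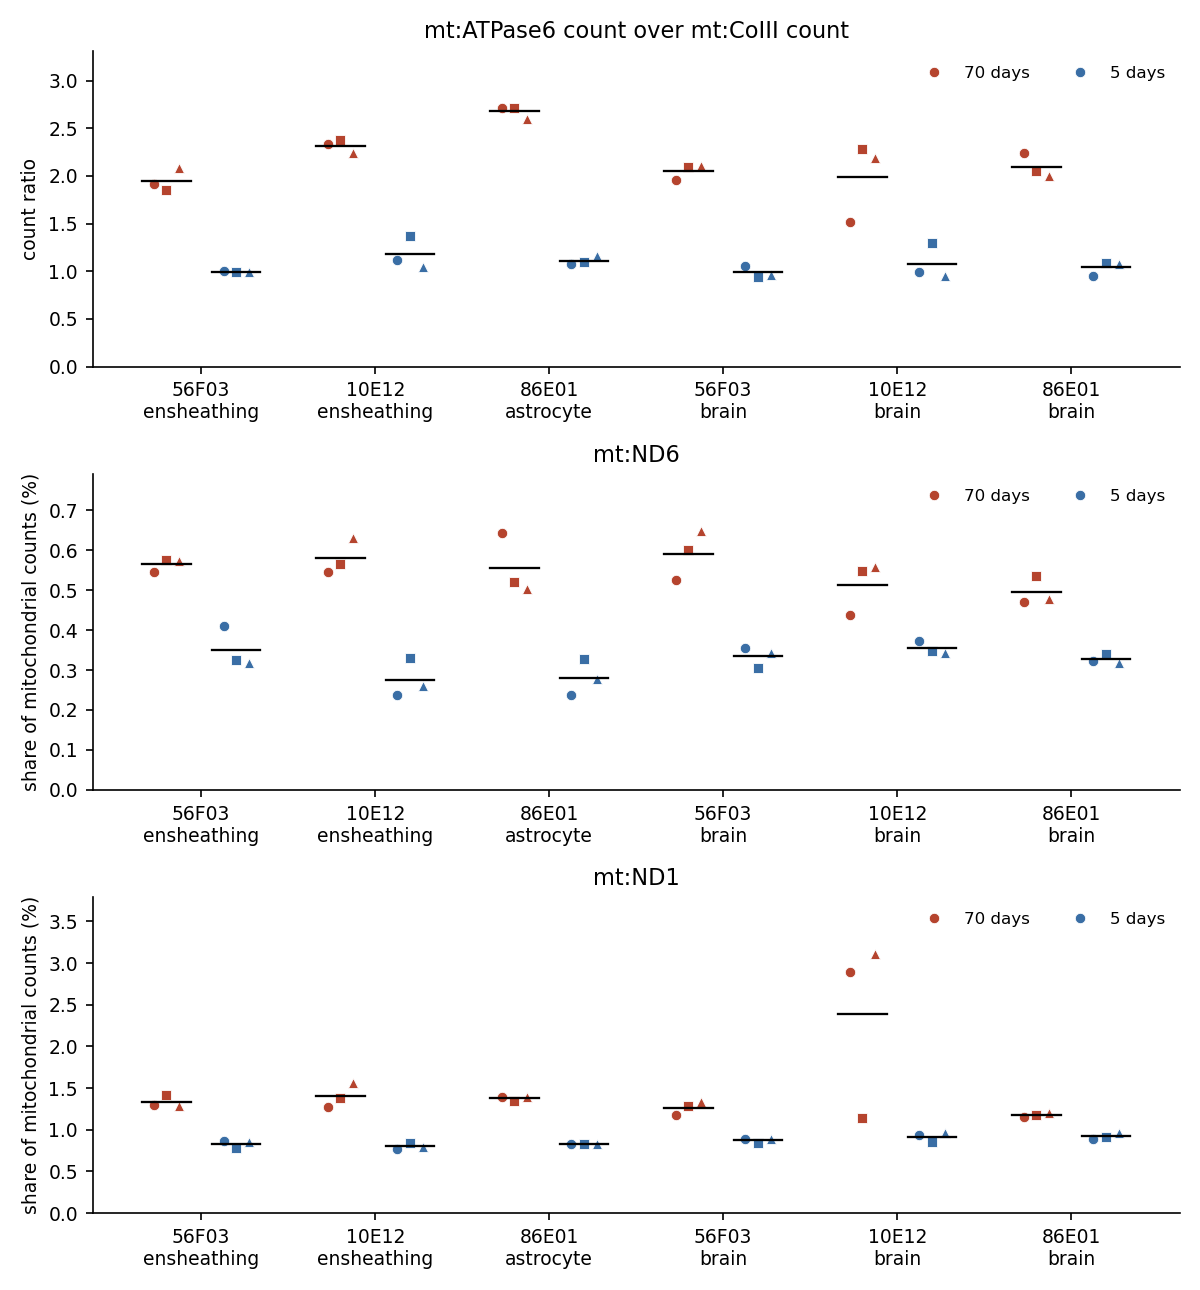
Ratio of the mt:ATPase6 count to the mt:CoIII count (top) and the shares of all mitochondrial counts held by mt:ND6 (middle) and mt:ND1 (bottom, both in %) in each library, with 70-day libraries in red to the left of 5-day libraries in blue and bars at group means. In all 3 panels no old library overlaps with a young one, and the lowest old ratio is 1.51.

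The age effect was set against that of another cell type by the test of the difference itself. For ensheathing minus astrocyte-like glia, 3 of 23 members passed, all higher (5.46% of all genes passed in that direction, 6.41% in the other and 11.9% in either). They were mt:srRNA (difference of log2 differences 1.14, standard error 0.22, adjusted p = 0.00253), mt:lrRNA (1.06, standard error 0.22, adjusted p = 0.00488) and mt:ATPase8 (0.90, standard error 0.24, adjusted p = 0.0196). mt:ATPase8, a small ATP synthase subunit, had 248 to 665 CPM (median 371) in old and 319 to 474 CPM (median 376) in young ensheathing glia, and 457, 282 and 341 CPM in old and 614, 814 and 570 CPM in young astrocyte-like glia. In this fit both rRNAs fell less in ensheathing glia. mt:ATPase8 had log2 differences with age of -0.01 in ensheathing and -0.88 in astrocyte-like glia, of which neither passed. The 3 astrocyte markers summed to 3399 to 6088 CPM in old and 22746 to 23972 CPM in young astrocyte-like libraries. They also fell in ensheathing glia, and the part of such shifts in these differences was not tested. With the TMM scaling used here all 23 estimates were positive, and the remaining 20 did not pass. Leaving out old astrocyte-like replicate 1 or young GMR10E12 ensheathing replicate 2 each gave 6 members, and 1 model over all 36 libraries gave 0.

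Between sorted glia and brain, 0 members passed in the test of the age difference in each of the 3 lines, of 19 in GMR56F03, 20 in GMR10E12 and 21 in GMR86E01 (edgeR). Of all genes, 1.91% passed in GMR56F03 (1.18% higher and 0.724% lower), 0.466% in GMR10E12 (0.184% and 0.282%) and 4.28% in GMR86E01 (2.97% and 1.31%). At an unadjusted p below 0.05 these tests had 0, 7 and 2 members, and DESeq2 had 0 in each line.

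The tRNAs were sparse. All 22 together had 9.40 to 649 CPM of the total counts, 3 of them (mt:tRNA:Asn-GTT, mt:tRNA:Asp-GTC and mt:tRNA:Glu-TTC) had fewer than 5 counts in every library, and 4 had counts in all 36. Their sum was 24.4 to 35.01 CPM in old and 9.40 to 16.2 in young ensheathing glia, and 20.9 to 38.7 in old and 15.8 to 23.1 in young astrocyte-like glia. As a fraction of the mitochondrial counts, old libraries exceeded all young ones in 5 of the 6 pairs of groups. Only 2 to 8 tRNAs entered each test, so what can be said of the others is limited by their counts.

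The leucine tRNA mt:tRNA:Leu-TAG (12670 to 12734, minus strand, between mt:ND1 and mt:lrRNA) was the member called higher with age in ensheathing glia. It had 15, 22 and 13 counts in old and 1, 0 and 3 counts in young GMR56F03 ensheathing glia, and 34, 23 and 25 counts in old and 4, 0 and 3 counts in young GMR10E12 ensheathing glia. In both lines together it rose (log2 difference 3.37, standard error 0.66, adjusted p = 0.00292). In astrocyte-like glia it had 56, 33 and 140 counts at 70 days and 3, 11 and 10 counts at 5 days, with depths of 5111542 to 17060052 and 1514977 to 13611810 total counts, and did not pass (1.65, standard error 0.95, adjusted p = 0.36). Reads assigned to a tRNA may come from longer precursors that contain it, and the counts cannot tell these apart.

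The mitochondrial counts of old GMR10E12 brain had a make-up of their own in replicates 1 and 3. mt:ND2, a complex I gene, had 9998 and 1029 CPM there, against 109 to 213 CPM in the other 7 old brain libraries. mt:ATPase8 had 16.7 and 161 CPM, against 176 to 239 CPM in the other 7. mt:Cyt-b had 4013 and 9731 CPM, against 9669 to 15730 CPM, so that only replicate 1 lay outside. Of all mitochondrial counts mt:lrRNA held 39.0% in replicate 1 and 33.3% in replicate 3, against 6.36% to 10.1% in the other 7. The tRNAs summed to 649 and 58.8 CPM in these 2, against 11.8 to 23.04 in the other 7. Replicate 1 also had the fewest counts of the series, and the part of depth and nuclear rRNA in these values was not tested.

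**Figure D5:**
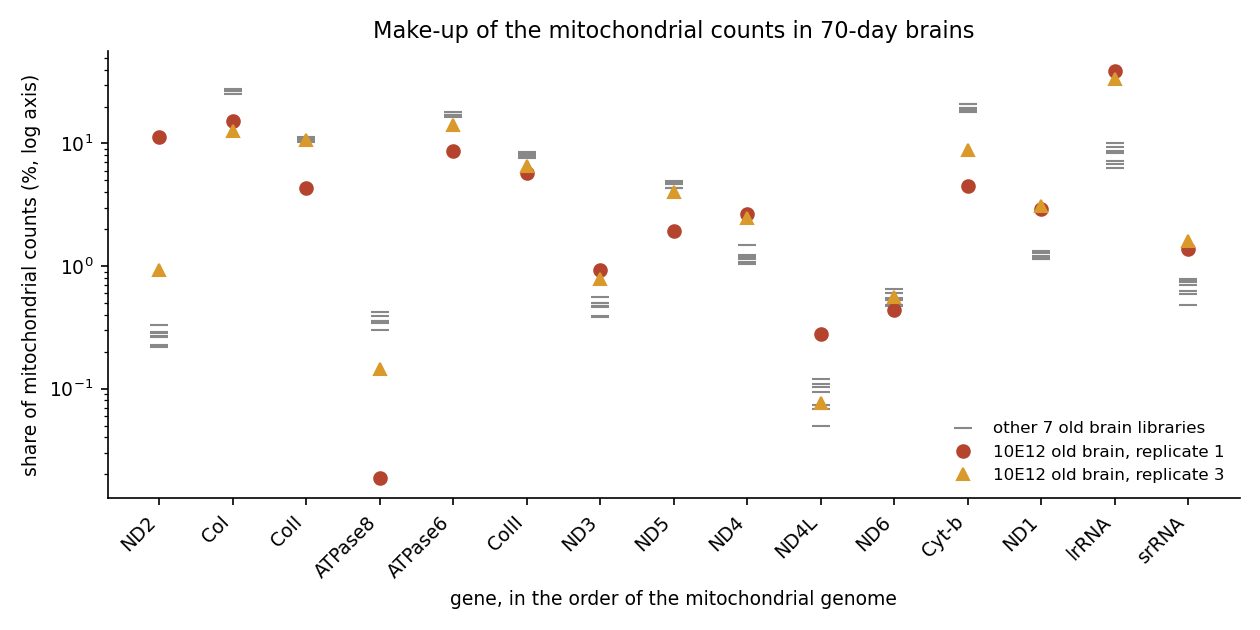
Share of all mitochondrial counts (%, log axis) held by each protein and rRNA gene in the 9 old brain libraries. Gray dashes are 7 libraries, the red circle is GMR10E12 replicate 1 and the orange triangle replicate 3. Both stand above the dashes at mt:lrRNA and mt:ND2 and below them at mt:ATPase8 and mt:Cyt-b.

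Sorted cells were then compared with the unsorted brain suspension of the same line and age, without pairing of libraries in the main tests. At 5 days 11 of 18 members were higher in astrocyte-like glia (21% of all genes were higher, 18.9% lower and 39.9% either), 10 of them protein genes, and at 70 days 9 of 20 were higher and 1 lower (17.3% and 14.7% of all genes, 32.1% in either direction). At 5 days mt:CoI had 55429, 59193 and 47043 CPM in astrocyte-like glia, against 16876, 25559 and 21102 CPM in GMR86E01 brain (log2 difference 1.38, standard error 0.19, adjusted p = 0.00131). At 70 days mt:ATPase6 had 23809, 15014 and 18108 CPM in astrocyte-like glia, against 10362, 9261 and 8513 CPM in brain (1.01, standard error 0.18, adjusted p = 0.00443). The exception at 70 days was mt:ND4L, a complex I gene, with 24.0, 23.2 and 18.4 CPM in astrocyte-like glia and 72.5, 39.5 and 34.3 CPM in brain (-1.17, standard error 0.32, adjusted p = 0.029). With the brain pool as a replicate block, mt:ND3 (0.67, adjusted p = 0.0387) and mt:lrRNA (0.80, adjusted p = 0.0278) were added at 5 days and mt:ND2 and mt:tRNA:Ala-TGC lost, and at 70 days mt:ND2 (0.51, adjusted p = 0.0411) was added and mt:tRNA:Leu-TAG lost.

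Members called between GMR56F03 ensheathing glia and brain were all lower in the glia and included both rRNAs at both ages. The other calls were 1 protein gene and 1 tRNA at 5 days and 3 protein genes at 70 days. At 5 days 4 of 18 members were lower (16.7% of all genes were lower, 18.6% higher and 35.3% either) and at 70 days 5 of 19 (20.4% lower, 23.6% higher and 44% either). At 70 days mt:lrRNA had 2698, 2317 and 2157 CPM in the glia, against 4422, 5750 and 4796 CPM in brain (-1.06, standard error 0.12, adjusted p = 1.2e-04). mt:ND4L had 19.5, 17.3 and 17.1 CPM in the glia, against 55.5, 39.6 and 53.8 CPM in brain (-1.48, standard error 0.19, adjusted p = 2.4e-04). At both ages fewer members passed, as a share, than all genes in either direction. In the blocked fit mt:tRNA:Cys-GCA was lost at 5 days.

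In GMR10E12 the result depended on the fit. At 5 days 1 of 18 members, mt:srRNA, was lower (16.9% of all genes were lower, 20.5% higher and 37.4% either), and with the brain pool as a replicate block 6 were higher and 1 lower. The blocked log2 difference was 0.57 for mt:CoI (adjusted p = 0.00464) and 0.61 for mt:ATPase6 (adjusted p = 0.0049). At 70 days 3 were higher and 5 lower of 20 (12.8% and 12.9% of all genes, 25.7% in either direction), 2 higher and 1 lower with the block, and 9 higher and 0 lower of 24 without the 2 libraries that stood apart, where 1 brain library was left and assumed to vary like the glia.

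Between glial types, ensheathing glia had 9 of 17 members lower than astrocyte-like glia at 5 days (9.61% of all genes were lower, 9.84% higher and 19.4% either), and all 17 estimates were negative with TMM scaling. Scaled to total counts the 9 stayed lower, and 3 members passed. mt:lrRNA had 7992 to 16282 CPM (median 11324) in the 6 young ensheathing libraries, against 20992 to 26945 CPM in the 3 young astrocyte-like libraries (-1.10, standard error 0.14, adjusted p = 5.0e-04). At 70 days 0 of 22 members passed with edgeR, 1 had an unadjusted p below 0.05 and DESeq2 called 0, while 1.77% of all genes passed (1.07% higher and 0.703% lower). mt:lrRNA then had 2157 to 7187 CPM (median 3925) in ensheathing and 3215 to 4980 CPM in astrocyte-like glia, and these overlapped.

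Between the ensheathing drivers, GMR56F03 had 14 of 21 members lower than GMR10E12 at 70 days (8.7% of all genes were lower, 5.22% higher and 13.9% either), including 12 of 13 protein genes and both rRNAs, and all 21 estimates were negative with TMM scaling. mt:ATPase6 had 10323, 9381 and 10608 CPM in GMR56F03, against 20453, 19775 and 21125 CPM in GMR10E12 (-1.07, standard error 0.06, adjusted p = 4.7e-05). mt:CoI had 19447, 17728 and 18661 CPM, against 35483, 31171 and 35258 CPM (-0.92, standard error 0.06, adjusted p = 8.5e-05). At 5 days 0 of 17 members passed with edgeR, 9 had an unadjusted p below 0.05, DESeq2 called 1, and 4.78% of all genes passed (1.4% higher and 3.38% lower). In the old libraries the photoreceptor markers summed to 959 to 1988 CPM in GMR56F03 and 4851 to 7433 in GMR10E12. This lay in ninaE (839 to 1796 and 4742 to 7248), while ninaC and trp overlapped. The blood cell markers summed to 415 to 1031 and 1599 to 2087. The ensheathing markers summed to 597 to 646 and 326 to 392 CPM, and the markers of surface glia to 472 to 795 and 1118 to 1607. Of the latter, moody went the other way (230 to 269 and 140 to 173). Their part in the result was not tested.

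Nuclear genes that maintain, transcribe and process mitochondrial nucleic acids were called lower with age about as often as all genes in ensheathing glia. Of 22 such genes in the table, 2 of 19 tested fell there with age and 0 rose (9.15% and 9.74% of all genes, 18.9% in either direction). In astrocyte-like glia 0 of 20 passed (3.65% of all genes fell and 2.8% rose), with 1 at an unadjusted p below 0.05 and 0 with DESeq2. In brain 2 fell and 1 rose of 20 (10.7% and 11.2% of all genes). Without the 2 libraries that stood apart 4 fell and 0 rose (15.6% and 14.3% of all genes). Suv3, the RNA helicase of the mitochondrial degradosome, had 3.33 to 9.17 CPM (median 8.15) in old and 14.5 to 24.2 CPM (median 18.7) in young ensheathing glia (-1.43, standard error 0.29, adjusted p = 0.00378), with no overlap. It also fell in brain (-0.76, standard error 0.21, adjusted p = 0.013, and -0.63, standard error 0.13, adjusted p = 0.00215 without the 2 libraries that stood apart). bsf, an RNA-binding protein that stabilizes mitochondrial transcripts, had 24.2 to 69.5 CPM (median 39.8) in old and 57.9 to 92.2 CPM (median 66.2) in young ensheathing glia (-0.76, standard error 0.21, adjusted p = 0.0193). scu, a subunit of mitochondrial RNase P in flies, was higher in sorted glia than in brain in all 6 comparisons, with log2 differences of 1.14 to 2.02.

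The nuclear genes of the respiratory chain, whose products assemble with those of the mitochondrial genes, were also tested for a change with age. Of 80 in the table, 49 of the 63 tested fell with age in the 18 brain libraries and 1 rose (10.7% of all genes fell), with a median of -0.60. Without the 2 libraries that stood apart, 61 of 64 fell and 2 rose, while 15.6% of all genes fell. Within lines, 59 of 63 fell in GMR56F03 brain (6.75% of all genes) and 53 of 63 in GMR86E01 brain (3.82% of all genes). In GMR10E12 brain 0 of 61 passed with edgeR, where 0.0358% of all genes rose and 0% fell. Almost no gene passed in that test, so the count of 0 cannot be read as a difference between lines. At an unadjusted p below 0.05 it had 13 of these genes, all lower, and DESeq2 called 7 lower and 1 higher.

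In both ensheathing lines together 20 of 63 fell (9.15% of all genes, median -0.31), with 23 of 61 in GMR56F03 (5.6% of all genes) and 2 of 62 in GMR10E12 (4.39% of all genes). In astrocyte-like glia 0 of 63 passed with edgeR (median -0.43, and 3.65% of all genes fell), 16 had an unadjusted p below 0.05, of which 15 were lower, and DESeq2 called 5, all lower. The age effect of sorted glia minus that of brain passed in 0 of 64 genes in GMR56F03, 0 of 62 in GMR10E12 and 1 of 63 in GMR86E01 with edgeR. At an unadjusted p below 0.05 these were 18, 1 and 12 genes, all higher, and DESeq2 called 0, 0 and 4. Complex V, which comprises the partners of mt:ATPase6, had 6 of 11 tested genes lower in ensheathing glia and 9 of 11 in brain (11 of 12 without the 2 libraries that stood apart).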

How the data were processed

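RNA was measured in 36 libraries, 3 in each of 12 groups of line, tissue and age. The authors made the libraries with a modified Smart-seq3 protocol primed with oligo-dT, read 38 bases from each end, aligned them to dm6 with STAR 2.7.3a (per the submitters' processing notes and the methods), dropped unmapped and improperly paired reads, and deposited raw counts of reads per gene, made in union mode, which drops reads over more than 1 gene. Strand, molecular identifiers and multi-mapping reads are not given in the sources used here. Total counts ran from 912285 to 17060052, and a level of 3 counts is 0.176 to 3.29 CPM.

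Tests used edgeR 4.0.16 (TMM scaling, filterByExpr on the design, quasi-likelihood test, Benjamini-Hochberg adjustment, threshold 0.05) on the libraries of each of 23 comparisons, with line as a term where lines were joined. Members that fail the filter (mostly tRNAs) were not tested. Standard errors are the log2 difference over the square root of F. The 95% intervals use a normal quantile on them, which makes them too narrow with so few libraries. Levels are counts over TMM effective sizes of all 36 libraries. R was 4.3.3 and DESeq2 1.42.0. Scripts were tested on simulated data. Names and positions came from an annotation of the same chromosome.

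The members and lists were chosen with earlier results of these data known. Per-library values were given for both rRNAs, for the 8 protein genes with the most age calls (ties by level) and for members called against the others, and other members by range. mt:ND2, mt:ATPase8, mt:ND6 and mt:ND3 were singled out after their values were seen. The 22 nuclear genes of mitochondrial nucleic acids come from a list of 23 names. The paper states that the unsorted suspensions were from the same brains as the sorted cells. That their replicate numbers match is not stated. The brain pool block assumes that libraries of the same number are pairs, and the main tests do not pair them. Deviations of such pairs from their group means had correlations of -0.018 to 0.210 (mean 0.0659, over genes). Numbers shared between ages stand for different flies. P-values measure the spread between pools of brains. Alternatives were DESeq2, other scalings, no filter, 1 fit over all libraries, a replicate block and each library left out. Leaving out both old GMR10E12 brain libraries that stood apart, and the brain pool as a block in the difference between sorted and brain, were added after the data were seen.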

Additional observations from a re-analysis of the deposited data

Results flagged for a closer look

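Across 72 checks of values within groups of 6 or 9 libraries, 14 had a library whose gap to its nearest neighbour was large for the range of the group. Chance alone flags about 1 in 20 such groups, and the values are not independent, since genes of 1 library move together. Young GMR10E12 ensheathing replicate 2 gave 8 of them. Among the 6 young ensheathing libraries it had 297 CPM for mt:ND2 (127 to 170 in the others), 21609 for mt:ATPase6 (9272 to 13274), 10753 for mt:ND5 (3882 to 5234), 1696 for mt:ND4 (700.5 to 941), 626 for mt:ND6 (293 to 381), 44994 for mt:Cyt-b (18668 to 26481) and 1594 for mt:ND1 (799 to 961). Its mitochondrial share was 17.8%, against 9.86% to 12.3%. Old GMR10E12 ensheathing replicate 3 had 46.1 CPM for mt:ND4L (17.1 to 25.7 in the other 5).

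Old GMR10E12 brain replicate 1 gave 4. It had 9998 CPM for mt:ND2 (109 to 1029 in the other 8 old brain libraries), 16.7 for mt:ATPase8 (161 to 239), 249.7 for mt:ND4L (34.3 to 84.6) and a tRNA sum of 649 CPM (11.8 to 58.8). Old GMR56F03 brain replicate 2 had 22192 CPM for mt:CoI (13498 to 16299 in the other 8).

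In the test of the age effect in ensheathing minus astrocyte-like glia 3 of 23 members passed, where 11.9% of all genes passed and 5.46% were higher. They were mt:srRNA (difference of log2 differences 1.14, adjusted p = 0.00253), mt:lrRNA (1.06, adjusted p = 0.00488) and mt:ATPase8 (0.90, adjusted p = 0.0196), all by the interaction term in edgeR. With 1 fit over all 36 libraries 0 members passed.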

How the results depend on the processing

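Of 108 calls of a member in a comparison, 52 kept direction and call under all alternatives tried, 56 lost the call under at least 1, and 4 changed sign. The sign changes came in old GMR10E12 glia against brain without the 2 brain libraries that stood apart, with log2 differences of 0.68 for mt:ND2, 0.10 for mt:lrRNA, 0.30 for mt:tRNA:Arg-TCG and 0.35 for mt:tRNA:Tyr-GTA. Counts of members below are totals of both directions.

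With DESeq2 the age counts were 5 in GMR10E12 ensheathing glia, 14 in both ensheathing lines, 7 in GMR10E12 brain, 7 in GMR86E01 brain and 10 in all brain, against 2, 9, 0, 4 and 6 with edgeR. The split into higher and lower was 6 and 8 in both ensheathing lines (edgeR 1 and 8), 2 and 3 in GMR10E12 ensheathing glia (0 and 2), 5 and 2 in GMR10E12 brain and 3 and 7 in all brain (0 and 6). It gave 14 in old GMR10E12 glia against brain, 4 higher and 10 lower (edgeR 3 and 5), 1 between the young ensheathing drivers (edgeR 0) and 1 for the difference of age effects between drivers (edgeR 0). With no filter, GMR10E12 ensheathing glia had 4 with age and the young drivers differed at 5. Without the 2 libraries that stood apart, all brain had 10.

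One fit over all 36 libraries gave 5 with age in GMR56F03 ensheathing glia, 3 in GMR56F03 brain, 13 in GMR10E12 brain, 2 in GMR86E01 brain and 13 in all brain. It gave 2 in young GMR56F03 and 16 in old GMR10E12 glia against brain, 0 for ensheathing minus astrocyte-like age effects, and 2 for sorted minus brain in GMR10E12.

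Scaling to total counts shifted the median of all genes by over 0.1 in 14 comparisons, from -0.42 to 0.41. It gave 5 members in astrocyte-like glia with age, 3 in GMR56F03 brain with age, and 3 in young ensheathing against astrocyte-like glia. With age, all genes then split into 613 higher and 196 lower in astrocyte-like glia (with TMM 240 and 313), 1205 and 300 in GMR56F03 brain (501 and 585), 542 and 134 in GMR86E01 brain (201 and 333) and 1611 and 392 in all brain (1026 and 981). Against brain the split was 1911 and 1043 in young GMR56F03 glia (1596 and 1430) and 1305 and 2338 in young astrocyte-like glia (1745 and 1575). Ensheathing against astrocyte-like glia gave 1629 and 330 at 5 days (826 and 807), and GMR56F03 against GMR10E12 166 and 244 at 5 days (118 and 284) and 938 and 482 at 70 days (454 and 757). Differences of age effects gave 211 and 1248 for ensheathing minus astrocyte-like (524 and 615), 62 and 19 between drivers (42 and 22), and for sorted minus brain 74 and 101 in GMR56F03 (111 and 68) and 418 and 81 in GMR86E01 (278 higher of 401).

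Replicate numbers as a block, which pair nothing between ages, gave 1 in GMR10E12 ensheathing glia, 1 in GMR86E01 brain and 5 in both ensheathing lines. With the brain pool as the block, GMR10E12 glia against brain had 7 at 5 days and 3 at 70 days. Pairing sorted with brain by replicate number left the differences of their age effects at 0 in each line.

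Leaving out 1 library at a time gave 1 to 6 members with age in GMR10E12 ensheathing glia, 5 to 9 in astrocyte-like glia (5 without young replicate 1 or 2 or old replicate 2 or 3), 2 to 6 in GMR56F03 brain (2 without young or old replicate 1 or 3), 0 to 5 in GMR86E01 brain (0 without old replicate 2 or 3, 2 without old replicate 1 or young replicate 3) and 5 to 10 in all brain (10 without old GMR10E12 replicate 1). Against brain it gave 2 to 3 in young GMR56F03 glia (2 without glia replicate 2 or 3), 0 to 5 in young GMR10E12 glia (5 without brain replicate 2, 0 without brain replicate 1 or any glia replicate), 0 to 14 in old GMR10E12 glia (0, 1 and 2 without glia replicates 1, 2 and 3, and 5 and 14 without brain replicates 1 and 2) and 5 to 11 in old astrocyte-like glia (5 without any brain replicate). Ensheathing against astrocyte-like glia had 5 to 12 at 5 days (5 without astrocyte-like replicate 2) and 0 to 1 at 70 days (1 without astrocyte-like replicate 2). Differences of age effects had 2 to 6 for ensheathing minus astrocyte-like, 0 to 2 between drivers (2 without young GMR10E12 replicate 2), 0 to 2 for sorted minus brain in GMR10E12 (2 without old brain replicate 2) and 0 to 1 in GMR86E01 (1 without old astrocyte-like replicate 1). The log2 difference of the rRNA ratio in all brain lay between -0.13 and 0.056. Depth limits the tRNAs, most of which had too few counts to be tested. For each change in count given here the cause was not tested.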
